A study of Danio rerio with 24 samples.

Results

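The genes described here are 9 genes of the neurons that use dopamine, noradrenaline, serotonin or histamine as transmitter, which together are called monoamine neurons. They were chosen by gene symbol: th, th2, tph2, slc6a3, slc6a4a, ddc, dbh, slc18a2 and hdc. Each symbol matched 1 row of the count table, which holds 32266 genes, and all 9 passed the filter on low counts that left 20957 genes to test. Their RNA was measured by sequencing in brain tumors of adult zebrafish of the WIK strain. The tumor fish carried somatic lesions of the retinoblastoma 1 gene (rb1) made with TALENs, which are designed nucleases, so each was a mosaic of targeted and untargeted cells. Tumor tissue came from 10 fish, 1 tumor per sample. The controls were 2 pools of normal brain from wild-type siblings, each of 3 brains, and all fish were aged 6.5 to 10 months per the labels. Tissue was taken from 1 side of the brain in both groups, with its front limit at the diencephalon and its rear limit past the cerebellum, and the controls carry the label midbrain-hindbrain. The comparison asks how the transcripts of these neurons differ between rb1 tumor tissue and normal brain.

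Monoamine neurons are few in number and sit in small clusters, but their axons reach most of the brain. Dopamine is made from tyrosine by tyrosine hydroxylase (th) and aromatic amino acid decarboxylase (ddc), and dopamine beta-hydroxylase (dbh) turns it into noradrenaline. Fish also carry the gene th2, which is placed beside th here by its name, and what its enzyme makes was not tested. Serotonin is made from tryptophan by tryptophan hydroxylase (tph2 in raphe neurons) and the same decarboxylase, and histamine is made from histidine by hdc. The vesicular transporter slc18a2 packs all of them into vesicles, and slc6a3 and slc6a4a take dopamine and serotonin back up into the cell. In zebrafish, dopamine neurons of the diencephalon take the place of the midbrain groups of mammals, neurons with th2 or hdc lie in the hypothalamus, noradrenaline neurons lie in the locus coeruleus and medulla, and tph2 is found in the raphe and in the pineal gland.

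Each of the 12 RNA samples was read as library replicates a and b, which were summed. The summed depth was 18.5 to 24.95 M counts for the tumors against 19.8 and 21.04 M for the pools. Levels are given as CPM, the count scaled to a common library total by TMM. The control libraries paired by letter rather than by pool. Control libraries of the same letter differed by a chi-square of 1.00 and 1.01 per degree of freedom, where 1 is sampling noise, and those of different letters, including the a and b library of each pool, by 3.25 to 3.42. The spread between the pools as labelled is therefore too small a measure of the spread among controls, and control SDs were computed from 2 sums, 1 per letter, called control sums a and b. Libraries a and b of the same tumor differed by 1.04 to 1.60 per degree of freedom. Why the control letters stood apart was not tested. The targeted gene rb1 was read at 18.8 to 101 CPM in tumors and at 13.1 and 14.6 CPM in the pools. Of 18 pan-neuronal marker genes, 15 were lower and 1, the early neuronal gene elavl3, was higher in tumors, and the summed level of the list was 2920 to 4974 CPM in tumors against 12511 and 12583 CPM in the pools. Of 9 oligodendrocyte lineage markers 5 were higher and 2, olig1 and mbpa, were lower. Of 10 mast cell, neutrophil and macrophage markers 4 were higher: spi1b, coro1a, mpeg1.1 and csf1ra. The neutrophil genes mpx and lyz and the mast cell gene cpa5 were not called. Of 8 radial glia and astroglia markers 4 were lower. Among all genes tested, 22.8% were higher and 24.9% lower. In bulk tissue, fewer neurons and less RNA per neuron cannot be told apart, and the share of each brain region in a sample was not tested.

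Most transcripts of the monoamine neurons were lower in tumors than in normal brain. Of the 9 genes, 7 were called lower (th, th2, slc6a3, ddc, dbh, slc18a2 and hdc), 0 were called higher and 2, the serotonin neuron genes tph2 and slc6a4a, were not called. Calling a gene took an adjusted p no higher than 0.01 together with a 1.5-fold or larger change, in the quasi-likelihood test of edgeR with Benjamini-Hochberg adjustment over all genes tested. All 9 log2 fold changes were below 0 in edgeR, DESeq2 and limma, so that 0 were higher at any p. By the same rule 24.9% of all genes tested were lower and 22.8% higher, around a median log2 fold change of 0.09. The median over the 9 genes was -1.96, in a range of -3.11 to -1.12. All 10 tumors lay below both pools for 7 of the 9 genes, and for 32.8% of all genes tested. They lay below both control sums for 6 of the 9, since tumor 9 lay above control sum a for slc6a3. The share over all genes was taken for the pools only, so the count for the control sums has none beside it. The test takes the pools as labelled as its control samples, and with control sums a and b in their place the count of genes called lower was again 7. The count rested in part on a single tumor: without tumor 8 it was 3. Over all genes, 4738 of 20847 tested were then called lower, against 5220 of 20957 with all samples. Without either control pool all 9 log2 fold changes stayed below 0, the lone pool then being assumed to vary like the tumors.

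**Figure D1:**
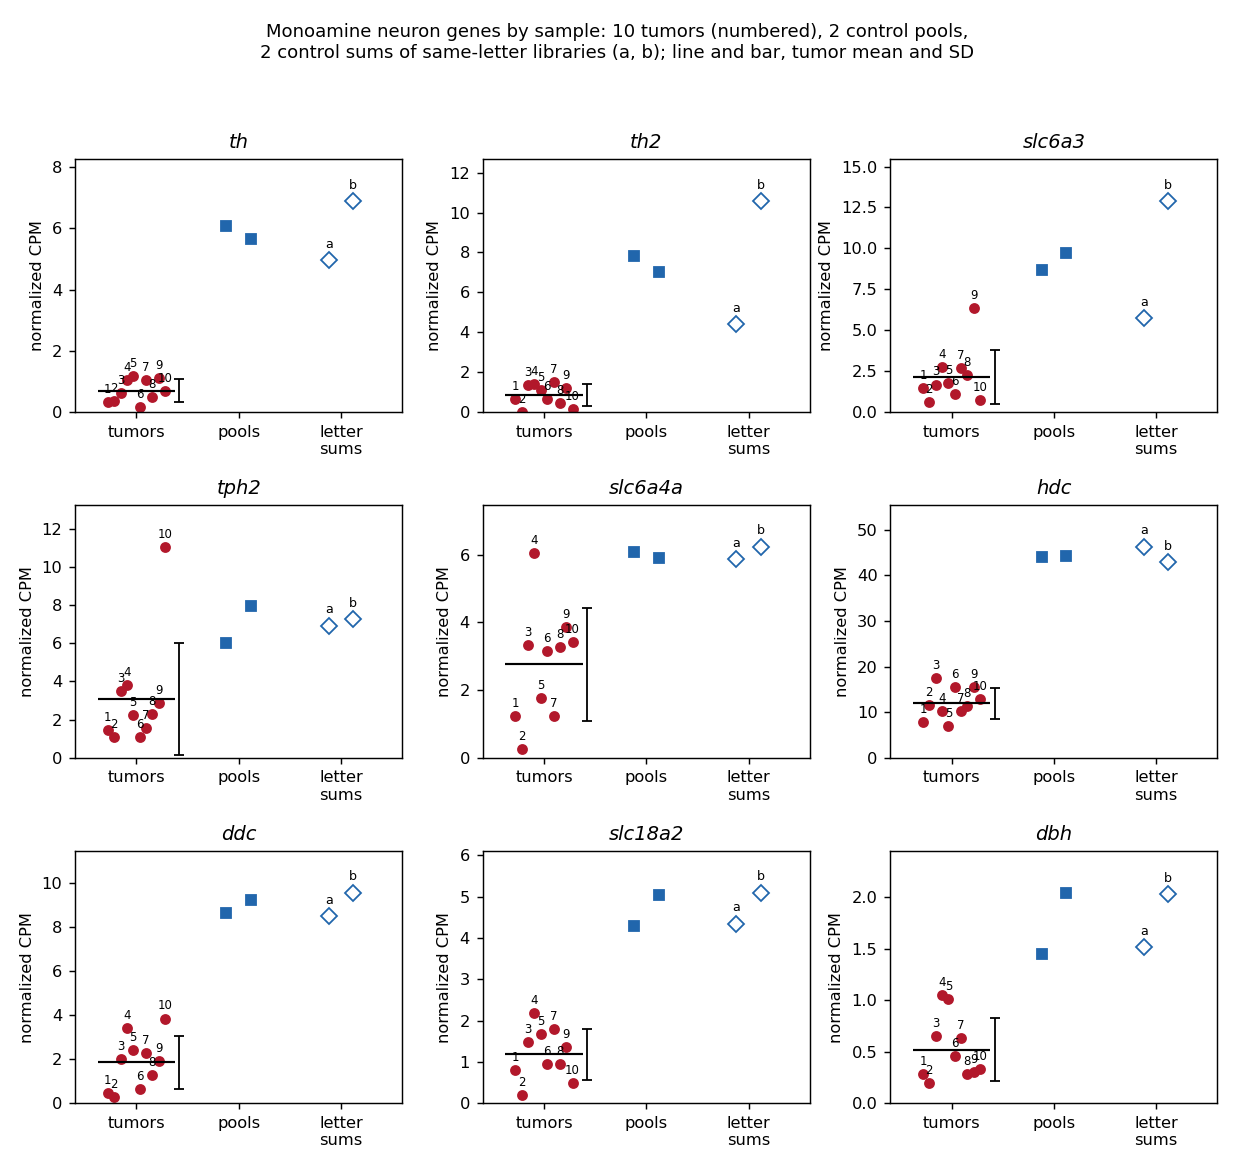
Level of each of the 9 genes in normalized CPM (vertical axes, linear) in the 10 tumors (red, numbered), the 2 control pools (blue squares) and the 2 control sums of same-letter libraries (open diamonds), with the tumor mean as a line and the tumor SD as a bar. Tumor 10 lies above both pools for tph2, tumor 9 lies above control sum a for slc6a3, and sums a and b stand apart for th2 and slc6a3.

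Of the dopamine neuron genes, th (ENSDARG00000030621), the gene of the enzyme that sets the rate of dopamine synthesis, ran from 0.166 CPM in tumor 6 to 1.18 CPM in tumor 5, with a median of 0.644 CPM. It stood at 6.09 and 5.66 CPM in the pools and at 4.96 and 6.88 CPM in control sums a and b. No tumor came near a control value. Its mean was 0.699 ± 0.372 CPM over the tumors (SD, n = 10) against 5.92 ± 1.36 CPM over the control sums (SD, n = 2). The log2 fold change was -3.06 with an SE of 0.47 (adjusted p = 0.000101, edgeR), an 8.33-fold lower level, and th was called lower in every alternative that tested it, with adjusted p up to 0.00487. Those levels rest on 4 to 28 counts per tumor.

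The second gene named for tyrosine hydroxylase, th2 (ENSDARG00000038384), was called lower as well. In tumors it ran from 0 to 1.51 CPM with a median of 0.880 CPM, against 7.83 and 7.02 CPM in the pools. Tumor 2 had 0 counts in library a and 0 in library b of 21.7 M counts in all, and a floor of 3 counts there is 0.138 CPM before scaling. Tumor 10 had 3 counts in all. The mean was 0.848 ± 0.543 CPM over the tumors (SD, n = 10) against 7.48 ± 4.36 CPM over the control sums (SD, n = 2), a log2 fold change of -3.11 with an SE of 0.69 (adjusted p = 0.00168, edgeR). The wide control SD comes from the control sums themselves, which held 93 counts (4.39 CPM) in a and 224 counts (10.6 CPM) in b. Control libraries of the same letter differed by sampling noise only, so the fit with letter a controls alone may count 1 control as 2. With the letter a control libraries alone the log2 fold change was -2.33 (adjusted p = 0.0167), and without control pool 1 or 2 the adjusted p was 0.0192 and 0.0142, so that th2 was then no longer called. Per exonic length, th made up 46.5% and 47.4% of th plus th2 in the pools. In tumors this share ran from 21.7% in tumor 6 to 100% in tumor 2, with a median of 48.2%. Control sum a held th at 3.52 and th2 at 2.79 FPKM, a level per exonic length, and control sum b at 4.85 and 6.66 FPKM. So th was the higher in a and the lower in b, and the control share was less fixed than the pools show.

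The dopamine transporter gene slc6a3 (ENSDARG00000004219) was also called lower, by a smaller estimate. It ran from 0.595 CPM in tumor 2 to 6.36 CPM in tumor 9, with a median of 1.72 CPM, and stood at 8.65 and 9.74 CPM in the pools. All tumors lay below both pools, but tumor 9 lay above control sum a (5.72 CPM) and below control sum b (12.9 CPM). The mean was 2.13 ± 1.66 CPM over the tumors (SD, n = 10) against 9.29 ± 5.06 CPM over the control sums (SD, n = 2), a log2 fold change of -2.11 with an SE of 0.57 (adjusted p = 0.00621, edgeR). The call was lost without tumor 3, 5 or 8 (adjusted p = 0.0103, 0.0104 and 0.0122), without pool 1 or 2 (0.035 and 0.0522) and with the letter a control libraries alone (log2 fold change -1.38, adjusted p = 0.0675). Of the 9 genes, slc6a3 and th2 were the ones that differed between the control sums. Their level in b was 2.24 times (95% interval 1.80 to 2.79) and 2.39 times (1.87 to 3.07) that in a, by exact binomial intervals that cover counting error only. By an exact binomial test at the same thresholds, 1.44% of 20795 genes differed between the control sums. For th the ratio was 1.38 (1.07 to 1.79), which did not pass the adjustment (adjusted p = 0.0979, exact binomial test).

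The serotonin neuron genes did not pass the test over all samples. Tryptophan hydroxylase 2, tph2 (ENSDARG00000057239), the first enzyme of serotonin synthesis in raphe neurons, was read at 1.08 to 3.81 CPM in tumors 1 to 9 and at 11.04 CPM in tumor 10, with a median of 2.26 CPM over all 10. The pools stood at 5.99 and 7.98 CPM and the control sums at 6.90 and 7.26 CPM. So 9 of 10 tumors lay below every control value and tumor 10 above every one. The value of tumor 10 was alike in its library replicates, with 111 counts in a and 118 in b. The mean was 3.09 ± 2.95 CPM over the tumors (SD, n = 10) against 7.08 ± 0.254 CPM over the control sums (SD, n = 2), a log2 fold change of -1.18 with an SE of 0.67 (adjusted p = 0.141, edgeR). Without tumor 10 it was -1.67 (SE 0.42, adjusted p = 0.00421) and tph2 was called lower, and over all alternatives the adjusted p ran from 0.00224 to 0.431.

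The serotonin transporter gene slc6a4a (ENSDARG00000061165) had no such single high sample. It ran from 0.248 CPM in tumor 2 to 6.04 CPM in tumor 4 with a median of 3.21 CPM, a 24.3-fold range, against 6.09 and 5.89 CPM in the pools. Tumor 4 lay between the pools and the other 9 tumors lay below both. The mean was 2.76 ± 1.67 CPM over the tumors (SD, n = 10) against 6.04 ± 0.256 CPM over the control sums (SD, n = 2). The log2 fold change was -1.12 with an SE of 0.65 (adjusted p = 0.148, edgeR), and it was not called in any of the 10 fits with a tumor left out. It was called lower by limma voom with sample quality weights (log2 fold change -1.43, adjusted p = 0.00175).

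In tumor 10 the high tph2 level came with high levels of some other genes of serotonin, noradrenaline and melatonin metabolism but not of all. The second tryptophan hydroxylase gene tph1a was at 19.4 CPM, against 0.595 to 2.44 CPM in the other tumors and 8.75 and 9.25 CPM in the pools. The noradrenaline transporter gene slc6a2 was at 15.8 CPM, against at most 5.24 CPM in the other tumors and 12.95 and 10.97 CPM in the pools, and ddc was at its tumor maximum, 3.86 CPM. By contrast, slc18a2 was at 0.482 CPM, above tumor 2 alone, dbh at 0.338 CPM, below its tumor median, and the genes tph1b and slc6a4b at 0.0964 and 0 CPM. The melatonin synthesis genes aanat2 and asmt, listed here as pineal cell markers, were at 33.4 and 20.9 CPM, where no other tumor exceeded 0.920 and 2.14 CPM and the pools lay at 0.997 to 1.84 CPM. Of 8 listed pineal cell markers 7 were matched, and exorh was not. Of the 7 matched, 6 were highest in tumor 10: aanat2, asmt, the phototransduction genes gngt1 (25.99 CPM) and arr3a (11.2 CPM), and the photoreceptor transcription factors crx (5.01 CPM) and otx5 (3.38 CPM). The exception was bsx, at 1.11 CPM in tumor 10 and 1.22 CPM in tumor 4. The summed level of the list was 101 CPM in tumor 10, 1.9 to 5.04 CPM in the other tumors and 6.62 and 7.07 CPM in the pools. Among the other tumors gngt1 was at 0 in tumors 1, 2 and 6 and otx5 in tumors 4, 5 and 8. The cells that these marker transcripts came from, and their part in the tph2 level, were not tested. Without tumor 10, tph1a had a log2 fold change of -2.60 and slc6a2 of -1.79, where over all samples they had -1.46 and -1.34 and were not called. Both genes were picked here for their high level in tumor 10. Leaving it out therefore lowers their estimates by the choice itself, and no test is given.

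**Figure D2:**
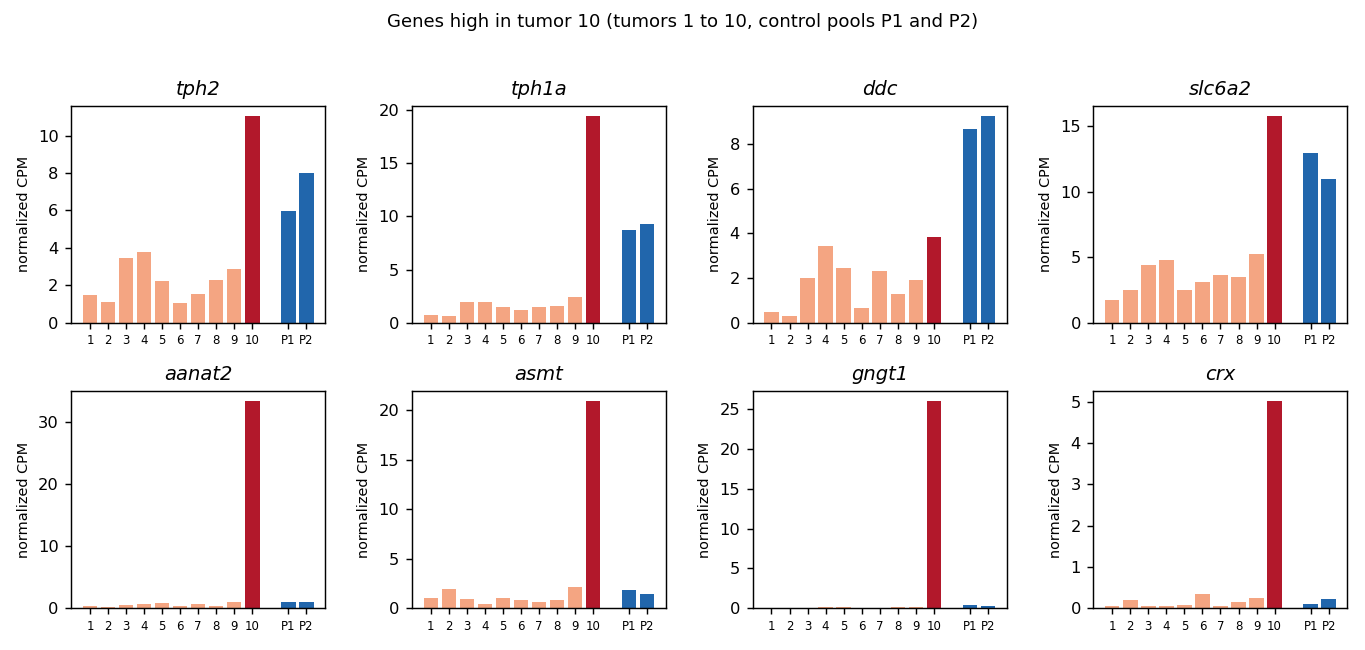
Normalized CPM (vertical axes, linear) of tph2, tph1a, ddc, slc6a2 and, from the list of pineal cell markers, aanat2, asmt, gngt1 and crx in tumors 1 to 10 and control pools P1 and P2. Tumor 10 (dark red) is the highest tumor in every panel and lies above both pools in all of them except ddc, where it reaches 3.86 CPM.

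Histidine decarboxylase, hdc (ENSDARG00000075454), the enzyme of histamine synthesis, had the most counts of the 9 genes, 165 to 427 per tumor, and the smallest spread. It ran from 6.95 CPM in tumor 5 to 17.5 CPM in tumor 3 with a median of 11.4 CPM, a 2.51-fold range, against 44.02 and 44.2 CPM in the pools and 46.2 and 42.8 CPM in control sums a and b. The tumors and the controls were wide apart. The mean was 11.96 ± 3.43 CPM over the tumors (SD, n = 10) against 44.5 ± 2.39 CPM over the control sums (SD, n = 2), a log2 fold change of -1.88 with an SE of 0.25 (adjusted p = 3.84e-05, edgeR), a 3.69-fold lower level. It was called lower in every alternative, with adjusted p up to 0.00323. Mast cells also use hdc. Their carboxypeptidase gene cpa5 was at 0.696 to 16.6 CPM in tumors and at 1.06 and 1.36 CPM in the pools (log2 fold change 1.78, edgeR adjusted p = 0.209), and its part in the hdc level was not tested.

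The genes that several of these neuron types share fell as well. Aromatic amino acid decarboxylase, ddc (ENSDARG00000016494), ran from 0.298 CPM in tumor 2 to 3.86 CPM in tumor 10 with a median of 1.97 CPM, against 8.65 and 9.25 CPM in the pools. The groups did not overlap. The mean was 1.87 ± 1.21 CPM over the tumors (SD, n = 10) against 9.04 ± 0.751 CPM over the control sums (SD, n = 2), a log2 fold change of -2.26 with an SE of 0.61 (adjusted p = 0.00608, edgeR). The vesicular transporter slc18a2 (ENSDARG00000015110) ran from 0.198 CPM in tumor 2 to 2.19 CPM in tumor 4 with a median of 1.16 CPM, against 4.30 and 5.03 CPM in the pools, again without overlap. Its mean was 1.19 ± 0.620 CPM over the tumors (SD, n = 10) against 4.72 ± 0.525 CPM over the control sums (SD, n = 2), a log2 fold change of -1.96 with an SE of 0.52 (adjusted p = 0.00509, edgeR). Both lost their call without tumor 8, with adjusted p of 0.013 for ddc and 0.0118 for slc18a2. Without pool 1 the adjusted p was 0.0375 for ddc and 0.0297 for slc18a2, and without pool 2 it was 0.0467 and 0.0526.

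The noradrenaline gene dbh (ENSDARG00000069446) had the lowest level of the 9 and the call closest to the threshold. It ran from 0.198 CPM in tumor 2 to 1.05 CPM in tumor 4 with a median of 0.397 CPM, from 4 to 24 counts per tumor, against 1.45 and 2.04 CPM in the pools. All tumors lay below both pools. The mean was 0.522 ± 0.308 CPM over the tumors (SD, n = 10) against 1.77 ± 0.364 CPM over the control sums (SD, n = 2), a log2 fold change of -1.72 with an SE of 0.51 (adjusted p = 0.00966, edgeR). The adjusted p was above 0.01, at 0.012 to 0.0196, in 8 of 10 fits with a tumor left out, those without tumor 1, 2, 3, 6, 7, 8, 9 or 10. Without pool 1 or 2 it was 0.0346 and 0.119. At 4 to 24 counts the direction held in every setting and the call did not.

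**Figure D3:**
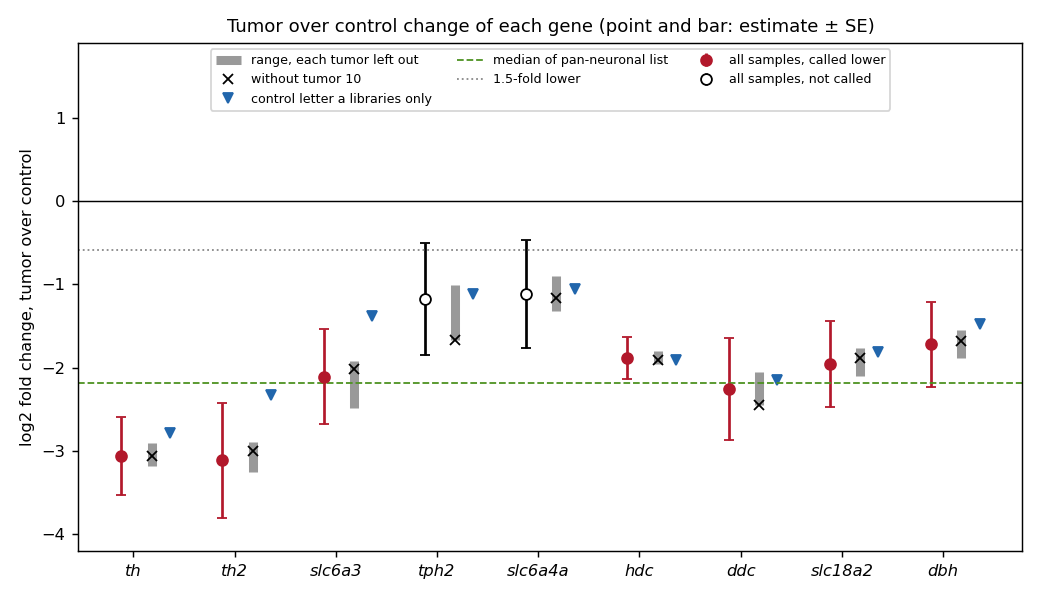
Log2 fold change of tumor over control for each gene (vertical axis), as the estimate with its SE (filled red where called lower, open where not called), the range over the fits that each leave out 1 tumor (gray), the fit without tumor 10 (cross) and the fit with the letter a control libraries alone (blue triangle). The dashed line is the median of the pan-neuronal list, -2.18, and the dotted line a 1.5-fold fall, and tph2 moves from -1.18 to -1.67 without tumor 10 and slc6a3 from -2.11 to -1.38 with letter a controls.

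Levels of different genes were compared per exonic length, as FPKM. In the control sums hdc was the highest of the 9, at 14.9 ± 0.866 FPKM (SD, n = 2). It was followed by th2 (4.73 ± 2.74), slc6a3 (4.43 ± 2.39) and th (4.18 ± 0.941), whose control sums overlapped. Those of th2 and slc6a3 also overlapped the sums of tph2 and slc18a2. Then came tph2 (3.31 ± 0.104), slc18a2 (2.78 ± 0.297), slc6a4a (2.50 ± 0.0947), ddc (2.16 ± 0.170) and dbh (0.806 ± 0.162), each with both sums above both sums of the next. In tumors hdc was again the highest, at 3.84 ± 1.17 FPKM (SD, n = 10). The next were tph2 (1.39 ± 1.33), slc6a4a (1.11 ± 0.698) and slc6a3 (0.993 ± 0.817), then slc18a2 (0.678 ± 0.371), th2 (0.522 ± 0.342), th (0.478 ± 0.268), ddc (0.432 ± 0.285) and dbh (0.231 ± 0.140), and each of these differed from the next by less than the larger of their SDs. By mean FPKM, tph2 and slc6a4a stood above th, th2 and slc6a3 in the tumors and below them in the control sums. The place of tph2 rested on tumor 10. Without it the tumor means were 0.999 FPKM for tph2, 1.08 FPKM for slc6a4a and 1.07 FPKM for slc6a3.

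Within samples th and tph2 were compared as the log2 ratio of their CPM, a ratio chosen after the values were seen. It was taken from log2 CPM with a prior count of 2, which damps ratios of low counts. CPM is not scaled to exonic length (1470 bp for th, 2224 bp for tph2). Such a ratio therefore does not rank the genes within a sample and was compared between samples only. The ratio of th to tph2 was -3.86 to -0.55 in tumors, with a mean of -1.83 ± 0.92 (SD, n = 10). In the pools it was 0.02 and -0.49, so that all 10 tumors lay below both pools. The difference of the means was -1.59, and without tumor 10 it was -1.37. For the transporters, the log2 ratio of slc6a3 to slc6a4a was -2.11 to 1.06 in tumors and 0.50 and 0.72 in the pools. The difference of the means was -0.92. Control sum a held slc6a3 at 5.72 CPM and slc6a4a at 5.86 CPM, and control sum b held them at 12.9 and 6.22 CPM. The transporter ratio thus spread wider over the control sums than over the pools. No test is given for either ratio.

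Tumor 2 had the lowest level of 6 of the 9 genes (th2, slc6a3, slc6a4a, ddc, dbh and slc18a2), and tumor 4 the highest of 3 (slc6a4a, dbh and slc18a2). The mean log2 CPM of the 9 genes ran from -0.88 in tumor 2 to 1.49 in tumor 4 and was 2.81 and 2.93 in the pools. The pan-neuronal markers had their lowest mean, 6.08, in tumor 1, where tumor 2 was at 6.39, and their highest, 7.36, in tumor 4, against 8.88 and 8.89 in the pools. Across the 10 tumors the Pearson r of the 9 genes with the pan-neuronal mean was 0.31 for tph2 to 0.62 for ddc and slc18a2. None of these 9 relations passed an adjusted p of 0.05 (lowest adjusted p = 0.134, 100000 permutations). The lowest raw permutation p was 0.0515, for slc18a2, with a Spearman rho of 0.68 (permutation p = 0.0351, adjusted 0.105). Without tumors 1 and 2, the farthest from the median of the markers, r was lower for 8 of the 9 genes. It was -0.03 for tph2, 0.13 for ddc, 0.19 for th, 0.32 for slc6a4a and 0.51 for slc18a2, against 0.64 for th2. Tumors 1 and 2 had the lowest marker means, so leaving them out also narrows the range of the markers. A lower r there cannot show that a relation rests on these tumors.

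Among the 36 pairs of the 9 genes, 32 had a positive r and 1 passed an adjusted p of 0.05. Without tumor 9 or without tumor 10 the count was 5, without tumor 7 it was 2, and with scaling by library size alone it was 5. The pair was th2 and slc18a2, with r = 0.97 (permutation p = 8e-05, adjusted p = 0.00288) and rho = 0.92 (permutation p = 0.00049, adjusted p = 0.0176). Without tumors 2 and 10, the farthest in th2, r was 0.86 (permutation p = 0.00843). Next came dbh with slc18a2 (r = 0.80, permutation p = 0.00385, adjusted p = 0.0647), th with ddc (r = 0.79, p = 0.00783, adjusted p = 0.0647) and tph2 with ddc (r = 0.78, p = 0.00558, adjusted p = 0.0647). The Spearman rho of dbh with slc18a2 was 0.87 (permutation p = 0.0021, adjusted p = 0.0378). For tph2 and slc6a4a, the synthesis and uptake genes of serotonin, r was 0.59 (permutation p = 0.0827, adjusted p = 0.199) and rho was 0.81 (permutation p = 0.00709, adjusted p = 0.0851). Without tumors 6 and 10 their r was 0.93 (permutation p = 0.00031). The histamine gene hdc had r from -0.25 (with dbh) to 0.33 (with slc6a4a) over all 10 tumors. These values were not stable. Its r with dbh was 0.36 without tumors 4 and 5, and its r with slc6a4a was 0.58 without tumors 2 and 7. Low values were not particular to hdc, since tph2 had r of 0.02 with th2 and 0.04 with slc6a3.

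**Figure D4:**
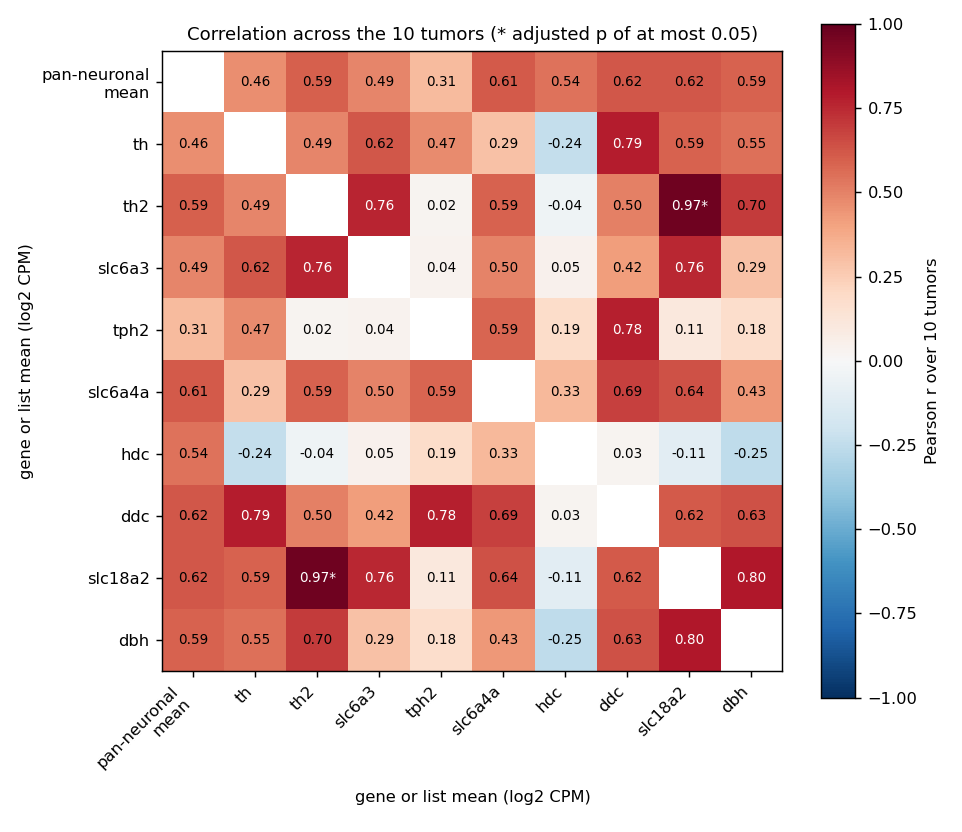
Pearson r over the 10 tumors between the log2 CPM of each pair of the 9 genes and with the mean of the pan-neuronal markers (both axes; color from -1 to 1). Over all 10 tumors th2 with slc18a2 (0.97) is the one pair with an adjusted p of at most 0.05, a count that is 5 without tumor 9 or 10, and the hdc row stays between -0.25 and 0.33 apart from its 0.54 with the pan-neuronal mean.

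Over the same 10 tumors, the genes closest to each of the 9 were found by Pearson r among the genes averaging 1 CPM or more, as a description. The vesicular transporter slc18a2 was closest to ccka (r = 0.98), a cholecystokinin gene, galn (0.97), the galanin gene, and kcnh4a (0.97), a potassium channel gene. For th2 the closest were the same ccka (0.98), slc18a2 itself (0.97) and ncanb (0.96), a neurocan gene of the extracellular matrix. The closest to th were mnx1 (0.95), a homeobox gene known from motor neurons, stard13a (0.94) and dennd1b (0.92). For ddc they were znf385d (0.93), six3b (0.93), a homeobox gene of the forebrain, and rhpn2 (0.92). For tph2 the closest was olfml2ba (0.95), for slc6a3 ldb2b (0.94), a LIM domain binding gene, for slc6a4a slc25a38a (0.96), for dbh GGT5 (0.94) and for hdc sod1 (0.93), superoxide dismutase. With 17525 or 17526 genes searched over 10 tumors such values are reached by many genes. The gene ranked at 50 still had r of 0.80 for tph2 and 0.88 for slc18a2, the lowest and highest of the 9. All of these values share the same 10 tumors, of which tumor 2 was the lowest for 6 of the 9 genes.

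The rest of the pathway was read from lists of related genes, beside 24.9% of all genes tested that were lower and 22.8% that were higher. Of 10 tested related synthesis and transport genes, 2 were lower, a share below that of all genes: slc10a4, known in mammals from synaptic vesicles of cholinergic and monoamine neurons, with a log2 fold change of -1.90 (edgeR adjusted p = 0.000766), and asmt2 (-1.01, adjusted p = 0.00945). Without tumor 10 the count lower was 4, made up of tph1a, slc6a2, slc6a4b and slc10a4, while asmt2 was no longer called (adjusted p = 0.0115). Of 9 tested genes of the tetrahydrobiopterin cofactor that the hydroxylases need, 3 were higher and 2 lower, shares near those of all genes. Sepiapterin reductase, spra, rose from 7.15 and 8.25 CPM in the pools to 60.6 ± 18.7 CPM in tumors (log2 fold change 2.97, edgeR adjusted p = 2.83e-05), gch2, a GTP cyclohydrolase gene that pigment cells also use, had 1.57, and pcbd1 had 0.73. The GTP cyclohydrolase feedback regulator gchfr had -2.34 and the co-chaperone dnajc12 had -1.10. The main cyclohydrolase gene of these neurons, gch1, was at 6.60 CPM on average in tumors and at 13.5 and 14.8 CPM in the pools (-1.10, adjusted p = 0.0237) and was not called. Without tumor 10, where it was highest at 12.7 CPM, gch1 was called lower (-1.26, adjusted p = 0.00457) and gch2 was not called (1.54, adjusted p = 0.0109). The fits of these lists without tumor 10 were chosen after its high values were seen. The calls that tph1a, slc6a2 and gch1 gained there are therefore no separate support. Of 9 breakdown genes, 6 were lower and 1 higher, among them the histamine oxidase aoc1 (-2.83), the histamine methyltransferase hnmt (-1.94) and the catechol methyltransferase comtb (-1.92) on the lower side and the aldehyde reductase akr1a1b (1.37) on the higher side. Monoamine oxidase, mao, was at 24.9 CPM on average in tumors, against 89.7 and 90.5 CPM in the pools, and was called lower too. The count of 6 became 5 without tumor 10, where comta was not called.

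Most serotonin, histamine and adrenergic receptor genes were lower, and 6 of 11 tested dopamine receptor genes were, among them drd3 (-2.73), drd6b (-2.69) and drd4-rs (-2.55). Of the other 5, drd7 (1.19), drd4b (0.79), drd1a (-0.34) and drd4a (-0.76) were not called, and drd2l rose from 1.401 and 1.68 CPM in the pools to 9.84 ± 4.71 CPM in tumors (log2 fold change 2.67, SE 0.73, edgeR adjusted p = 0.00621), in a range of 1.43 to 17.1 CPM. Of 15 serotonin receptor genes tested, 14 were lower, led by htr7b (-3.04), htr7a (-2.99) and htr5ab (-2.90), and htr2ab alone was not called (-0.25). All 3 tested histamine receptor genes were lower: hrh2a (-3.09), hrh3 (-2.78) and hrh1 (-2.12). Here hrh3, in mammals the receptor through which histamine neurons sense their own release, went from 34.4 and 34.99 CPM in the pools to 5.02 ± 2.23 CPM. Of 14 adrenergic receptor genes tested, 12 were lower, with adrb1 (-3.86), adrb2b (-3.16) and adra2b (-2.95) ahead. Against these, 24.9% of all genes tested were lower, and the pan-neuronal list had a median of -2.18, where the receptor lists had -2.11 (dopamine), -2.48 (serotonin), -2.78 (histamine) and -2.14 (adrenergic).

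Of 22 tested transcription factor genes that are known from monoamine neurons, 9 were lower, with a median of -1.53, beside 24.9% of all genes tested. The largest falls were those of lmx1al (-3.14), pitx3 (-2.80) and tfap2a (-2.78), which in fish or mammals act in the development of dopamine or noradrenaline neurons. The hypothalamic dopamine factors otpa (-2.45) and otpb (-2.57), the orphan receptors nr4a2a (-2.33) and nr4a2b (-2.07), gata3 (-2.38) and etv5b (-0.96) were lower too. The serotonin neuron factor fev was at 0.194 CPM on average in tumors and at 0.483 and 0.544 CPM in the pools (-1.34, edgeR adjusted p = 0.156) and was not called, and neither were lmx1bb (-0.22) and isl1 (0.12). Most of these factors also act in other cells.

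**Figure D5:**
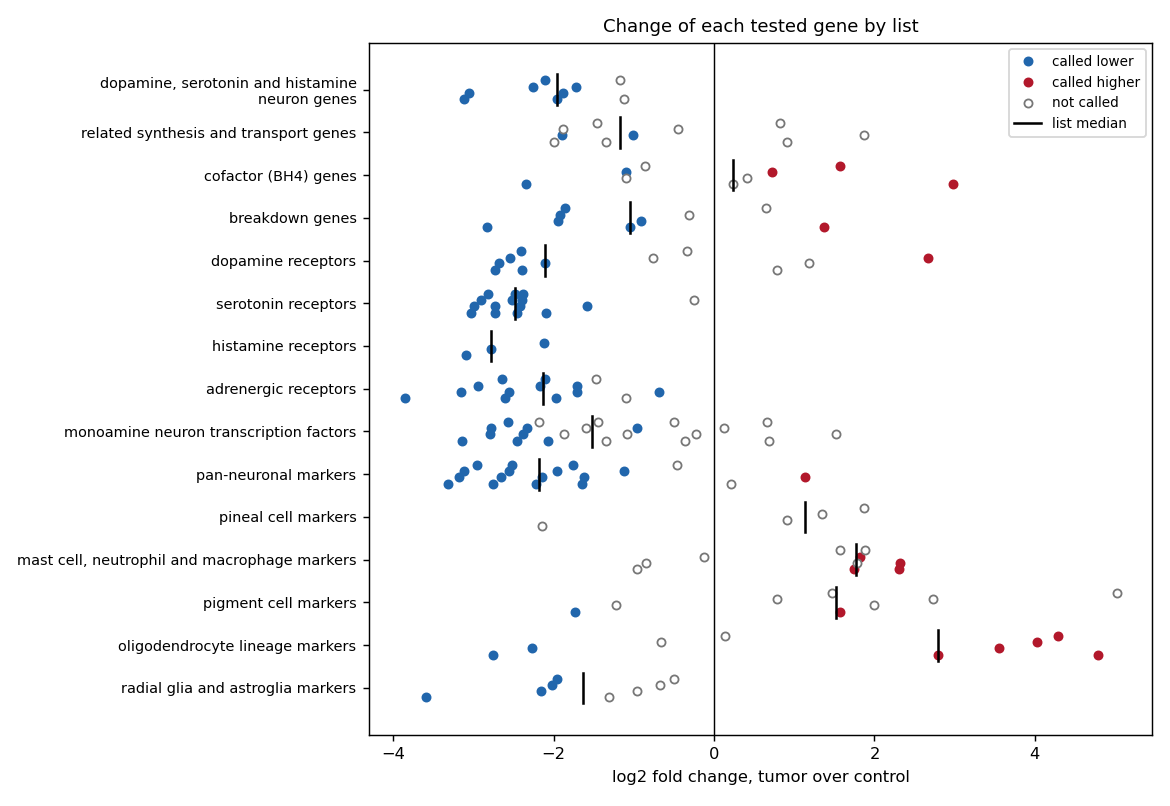
Log2 fold change of tumor over control (horizontal axis) of every tested gene in each list, filled where called lower (blue) or higher (red) and open where not called, with the list median as a bar. The 9 genes lie between -3.11 and -1.12, the pan-neuronal markers have a median of -2.18, and drd2l (2.67) is the one receptor gene called higher.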

How the data were processed

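Brain RNA of 10 tumors and 2 control pools was sequenced as 24 TruSeq libraries with single-end reads. The deposited raw counts are whole reads per gene. The submitters' notes name GSNAP, HTSeq, DESeq2 and GRCz10. The study's methods, placed after its larval libraries, state that only uniquely mapped reads were counted, so near-identical copies lose reads; use of strand in counting is not given in the sources used here. The deposited FPKM were computed by the authors from counts, exonic length (a column in another unit, base pairs) and library totals. A deposited table of the authors' own DESeq2 comparison (log2 fold changes, p-values) was not used.

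Libraries a and b of a label were summed. The fit was edgeR 4.0.16 in R 4.3.3 (quasi-likelihood, TMM, filterByExpr), tested on simulated data, with SE taken as the log2 fold change over the root of F. Relations and the ratios of genes within samples used log2 CPM with a prior count of 2. Control sums were compared over genes with at least 10 counts. Alternatives used DESeq2 1.42.0 (default size factors), limma 3.58.1, other scalings, filters, libraries, FPKM scales, thresholds and left-out samples. Those without tumor 10 together with letter sums, with letter a or b controls alone, and for the other lists were chosen after seeing the data. By the labels, replicates are different fish or pools, but the control libraries paired by letter. Leaving out a labelled pool may therefore not leave out a separate set of brains. Likewise, the fits with letter a or b controls alone may count 1 control sample as 2. No sequences are printed, since no sequence tables were used here.

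The 9 genes and the lists were chosen with earlier results of these data known. Named genes were all 9, the 3 largest called changes in each direction per list among genes reaching 1 CPM in either group, and the 3 closest genes by Pearson r; other genes named were chosen after their values were seen. The 14 other lists held 4 to 28 genes each. Of 8 tested pigment cell markers 1 was higher and 1 lower.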

Additional observations from a re-analysis of the deposited data

Results flagged for a closer look

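Among the 10 tumors, each of the 9 genes, the tested pineal markers and each list mean was searched for a sample whose distance from its nearest neighbour is large against the whole range (Dixon's 95% critical value, 0.466 for 10 samples). Chance alone marks about 1 in 20 of the 27 sets searched, and genes that sit in a list are counted there too. On the log2 CPM scale, slc6a4a was low in tumor 2, at -1.56, where the other tumors lay between 0.40 and 2.62. In tumor 10, aanat2 was high at 5.06 (others at most 0.01), asmt at 4.39 (others at most 1.16) and arr3a at 3.50 (others at most -0.74). The mean of the pineal cell markers was 3.30 in tumor 10 against at most 0.14 in the others, and the mean of the related synthesis and transport genes, which holds aanat2 and asmt, was 1.41 against at most 0.43. The hypothalamic and pineal homeobox gene bsx was low in tumor 2, at -3.47, where the others lay between -1.24 and 0.40. On this scale tph2 in tumor 10 lay just under the critical value, at 0.4656.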

How the results depend on the processing

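The log2 fold changes of the 9 genes kept their direction in every setting run. The median of the pineal markers went from 1.13 to -1.31 without tumor 10, and 10 of the 45 relations, which had not passed 0.05, changed sign in some setting, such as th2 with tph2 (-0.47 to 0.61 with a tumor left out). The count of 7 called lower was 2 with at least 10 counts required in every sample (3 genes then tested: hdc, slc6a3 and tph2), 3 with library a alone, 3 when edgeR tested for more than a 1.5-fold change (glmTreat), 3 with letter a controls alone, and 2 to 7 with a sample left out. Over all genes, 4592 of 19597 tested were called lower with library a alone and 4918 of 20967 with letter a controls alone. Voom with quality weights called tph2 (-1.42) and slc6a4a (-1.43), and letter sums without tumor 10 called tph2 (-1.68). Lost calls were those of th2 with library a (-2.21) and letter a controls (-2.33), of slc6a3 with library a (-1.49), glmTreat (-2.11) and letter a controls (-1.38), and of ddc with glmTreat (-2.26). For slc18a2 they came with library a (-1.89), glmTreat (-1.96) and letter a controls (-1.82). For dbh they came with no filter (-1.71), library a (-1.53), library b (-1.82), log2(FPKM + 1) (-0.55), glmTreat (-1.72), letter sums without tumor 10 (-1.69) and letter a controls (-1.47). With a sample left out, log2 fold changes ran from -3.26 to -2.89 for th2, -1.67 to -0.96 for tph2, -2.49 to -1.92 for slc6a3, -2.44 to -2.05 for ddc, -1.95 to -1.46 for dbh and -2.10 to -1.76 for slc18a2. In the other lists, summing controls by letter added insm1a (-1.89) and qdpra (-0.88) to the genes called lower. Pairs past 0.05 numbered 3 on the log2(FPKM + 1) scale, 5 with library size scaling and 1 to 5 with a tumor left out. By the labels, the replicate numbers name different fish and pools and do not pair them (correlation of same-numbered deviations 0.01 and 0.02). With them as a replicate block, which leaves tumors 1 and 2 against the pools, 3 genes were called, and th2 (-4.76), slc6a3 (-3.22), dbh (-2.80) and slc18a2 (-3.32) were not. Over all genes glmTreat called 3158 higher and 3792 lower against 4779 and 5220, and without a pool 2904 to 2949 and 3576 to 3626. A floor of 3 counts is 0.120 to 0.162 CPM, and of the 9 genes hdc is the one with over 100 counts in every tumor.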
